A study of Mus musculus with 18 samples.

Results

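The 6 libraries described here are the scramble-shRNA libraries of a series of 18, and they set mCherry-positive against mCherry-negative cells sorted from the same embryonic mouse kidneys. They were chosen by their labels alone: 3 positive and 3 negative fractions, 1 of each from each of 3 litters. The kidneys came from wild-type CD1 mice, an outbred stock, at embryonic day 14. They were exposed for 4 hours to AAV2, an adeno-associated virus used to deliver genes, and then held for 72 hours in a gel of collagen I and matrigel. The vector carried mCherry, a red fluorescent reporter, under the CAG promoter, which is active in most cell types, followed by 2 mir30-type shRNA cassettes. In the scramble-shRNA vector the cassettes held shuffled Rock1 and Rock2 target sequences, so that no gene was meant to be lowered. After culture the explants of a condition were pooled and dissociated. Cells in the top 25% of mCherry signal formed the positive fraction and cells in the bottom 50% the negative fraction, so the negative cells had met the same virus. The remaining 12 libraries carried shRNAs against Mylk or against Rock1 and Rock2 and were sorted in the same way. The comparison shows which genes of kidney cell types differed in level between the 2 gates when no knockdown was intended. The reporter transcript itself was not analysed here.

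The fetal kidney grows from a branching ureteric bud, a cap of nephron progenitor cells around each bud tip, and a surrounding stroma that gives rise to interstitial fibroblasts, smooth muscle, pericytes and renin cells. Progenitors condense and turn into epithelium as they form nephrons. Blood vessels and tissue macrophages of embryonic origin lie among them, and an explant without blood flow keeps the red cells that were in its vessels. AAV2 attaches to heparan sulfate proteoglycans on the cell surface and enters by endocytosis, and expression from its genome also needs that genome to reach the nucleus and become double-stranded.

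Total counts were 5633090, 8145026 and 3153498 in the positive libraries and 10915604, 12170830 and 3890052 in the negative libraries of litters 1, 2 and 3. All values by library below follow that order of litters. They are in CPM, counts scaled to a common library total of 1000000, and log2 fold changes are positive minus negative with their SE, from edgeR's paired test across all genes. The first principal component of the 6 libraries held 47.7% of the variance and parted the fractions, while the second, with 25.88%, set litter 3 apart. Genes of the mitochondrial genome held 7.62% of all counts for the negative library of litter 3, and 2.48 to 4.02% for the other 5. Markers of the labelled tissue were present in every library, among them the progenitor gene Six2, the stromal gene Foxd1 and the nephrogenic gene Wt1.

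Of 16544 genes tested, 1896 (11.5%) were higher and 1570 (9.49%) lower in the positive fraction at an adjusted p under 0.05, and 21% were called in either direction. The change exceeded 2-fold for 732 of the higher and 435 of the lower genes, and 8-fold for 143 of the higher against 7 of the lower genes. The median log2 fold change over all genes tested was -0.01. For 17% of the genes tested, all 3 positive libraries lay above all 3 negative ones, and for 9.25% all lay below. Without the pairing by litter the counts were 1229 higher and 803 lower. Leaving out 1 library removes its pair and left 1560 or 1563 calls without the positive or negative library of litter 2, and 2023 or 2024 without that of litter 1. Fewer cells of a type and less RNA per cell cannot be told apart in these bulk libraries.

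**Figure D1:**
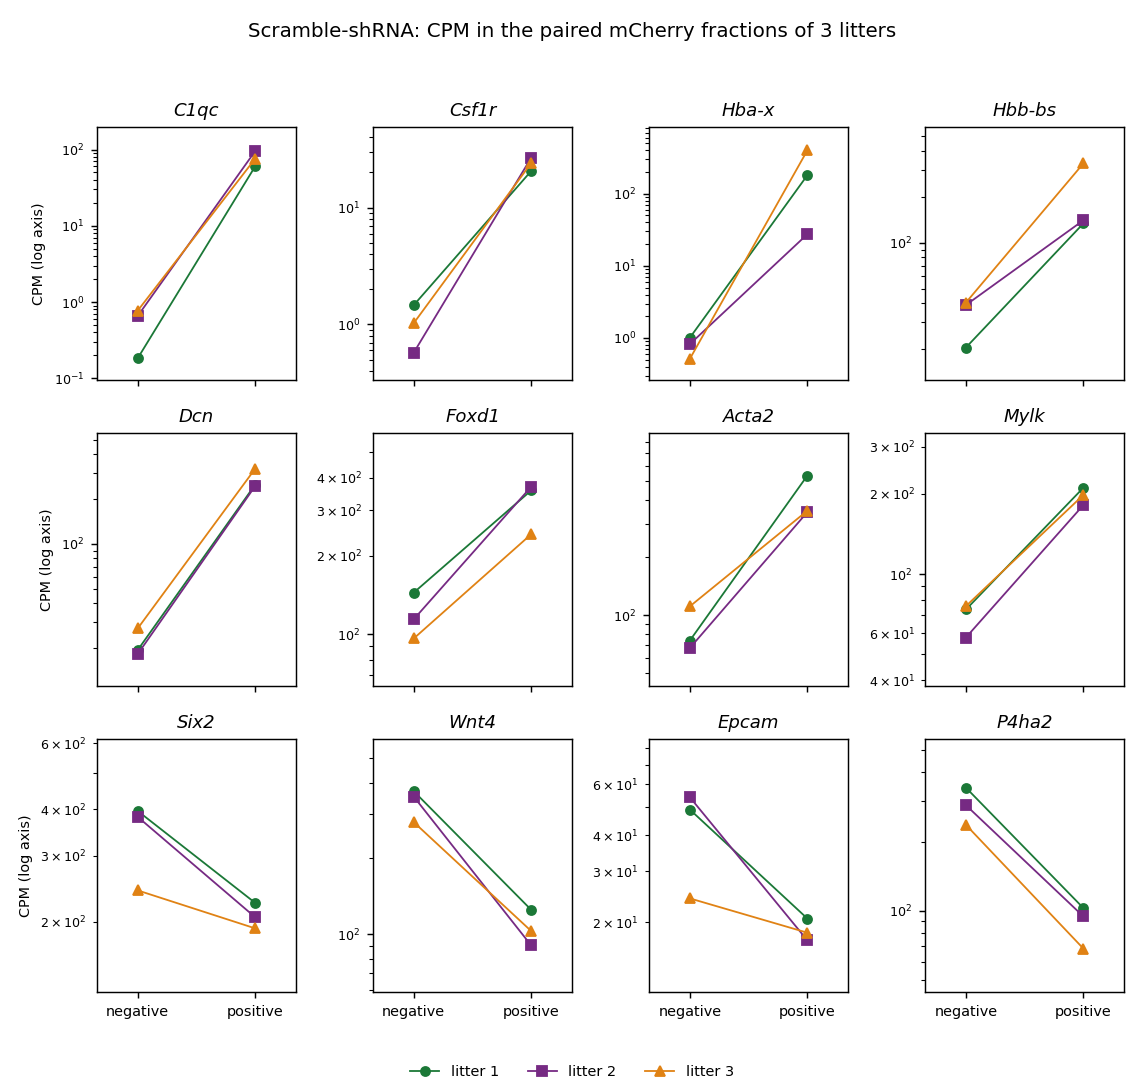
CPM on a log axis for 12 genes in the negative and positive fractions of the 3 scramble-shRNA litters, with a line joining the 2 fractions of a litter. The upper 8 panels show genes that were higher in the positive fraction in each litter, and the lower 4 panels show genes that were lower in each litter.

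Macrophage genes were far higher in the positive fraction. All 22 genes of the macrophage list were tested and all 22 were higher in the positive fraction, with a median log2 fold change of 5.13, beside 11.5% of all genes called higher. The summed level of the list was 431, 652 and 505 CPM in the positive libraries and 26.1, 16.7 and 16.8 CPM in the negative libraries, so the groups did not overlap. C1qc, C1qa and C1qb encode the chains of complement C1q, which tissue macrophages secrete. C1qc (ENSMUSG00000036896) stood at 60.2, 95.4 and 75.8 CPM in the positive and 0.183, 0.657 and 0.771 CPM in the negative libraries. Its log2 fold change was 7.25 ± 0.22 (adjusted p = 6.78e-13), and the ratio of the mean levels was 144-fold. Csf1r, the receptor for the growth factors that macrophages need to survive, stood at 20.6, 26.8 and 24.1 against 1.47, 0.575 and 1.03 CPM (4.51 ± 0.40, adjusted p = 2.33e-06). The lineage transcription factor gene Spi1, which encodes PU.1, stood at 9.05, 15.1 and 9.83 against 0.550, 0.822 and 1.03 CPM (3.91 ± 0.38, adjusted p = 2e-06). In each of these genes every positive library lay above every negative library.

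The same held for the lysosomal protease gene Ctss at 29.3, 40.3 and 38.7 against 0.825, 0.739 and 0 CPM, and for the Fc receptor subunit gene Fcer1g at 36.04, 48.5 and 43.1 against 1.099, 1.15 and 1.54 CPM. Their log2 fold changes were 5.68 ± 0.27 and 5.10 ± 0.18. Timd4, a receptor for dying cells found on resident macrophages, had 39 counts over the positive libraries and 0 over the negative libraries, which is at least 20.7-fold higher in CPM when the negative group is set at a floor of 3 counts. The smallest change in the list was that of Ptprc, which encodes the pan-leukocyte antigen CD45, at 2.31, 4.54 and 5.71 against 0.458, 0.822 and 0.771 CPM (2.45 ± 0.35, adjusted p = 8.04e-05). Lyz2, a lysozyme gene of myeloid cells, was the list member whose call was lost without litter 3 (adjusted p = 0.0928), where 21 of the 22 were called. A gene high only in the positive libraries can reach a mean of 5 CPM over the 6, so the next count gives no separate support. Of the 15 genes with the largest increase among called genes of at least that mean, 9 were in the list. The other 6 were the globin genes Hba-x and Hbb-y, described below, C3ar1 and C5ar1, the receptors of complement fragments, Gpnmb, a lysosomal membrane glycoprotein of phagocytes, and Mpeg1, a pore-forming protein of macrophages. Gpnmb stood at 178, 185 and 117 against 3.21, 1.397 and 0.257 CPM.

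Of the 15 genes listed for granulocytes, mast cells, lymphocytes and dendritic cells, 5 had enough counts to be tested. Of these 0 were higher and 1 was lower, too few genes to set against the 11.5% and 9.49% of all genes. The lower gene was Elane, a neutrophil protease gene, at 0.533, 0.491 and 0.317 against 0.458, 3.37 and 1.03 CPM (-1.95 ± 0.63, adjusted p = 0.0336). Its fractions overlapped, and its call was lost without any 1 library of litters 2 and 3 (adjusted p = 0.0552 to 0.816). Ly6g, a neutrophil marker, and Cd3e, a T-cell marker, had no count in any scramble-shRNA library.

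The promoters of C1qc and Ctss are shown because both genes are in the macrophage list, and because PU.1 is known to bind purine-rich sites with a GAGGAA core. The sequences run from 250 bases before to 50 after the gene's start, are RefSeq's for the build GRCm38.p6, and carry the core in capitals in either orientation (GAGGAA or TTCCTC). The counts themselves were made on another build, GRCm39, per the submitters' processing notes. C1qc lies at chr4:136892865-136893164 on the minus strand and Ctss at chr3:95526536-95526835 on the plus strand.
C1qc: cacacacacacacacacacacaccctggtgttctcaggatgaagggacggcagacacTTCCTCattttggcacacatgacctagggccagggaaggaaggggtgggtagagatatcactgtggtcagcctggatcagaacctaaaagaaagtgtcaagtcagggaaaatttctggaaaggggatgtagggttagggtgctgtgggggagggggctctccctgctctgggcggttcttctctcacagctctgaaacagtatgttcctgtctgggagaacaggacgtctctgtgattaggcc
Ctss: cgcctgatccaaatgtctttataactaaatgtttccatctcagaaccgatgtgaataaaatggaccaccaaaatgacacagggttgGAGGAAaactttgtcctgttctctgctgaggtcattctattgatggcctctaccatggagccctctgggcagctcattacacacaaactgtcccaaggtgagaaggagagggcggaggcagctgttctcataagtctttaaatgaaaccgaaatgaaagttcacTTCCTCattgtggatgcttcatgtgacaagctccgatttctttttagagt
The core was present in 12 of the 16 macrophage-list promoters that RefSeq's table held (75.0%) and in 28.3% of all 27025 promoters. This share is a property of a list chosen for its cell type and is not a result of these libraries. A match is a run of letters in this window, and binding was not measured.

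Red-cell transcripts also differed widely. Of 18 erythroid and megakaryocyte genes 12 were tested, with a median of 2.78. Among these 8 were higher and 1 lower, beside 11.5% and 9.49% of all genes. Hba-x, the embryonic alpha-type globin, stood at 179.7, 27.4 and 397 CPM in the positive and 1.01, 0.822 and 0.514 CPM in the negative libraries (7.25 ± 1.02, adjusted p = 0.00383). Hbb-y, the embryonic beta-type globin, stood at 559, 111 and 1231 against 4.95, 4.77 and 8.74 CPM (6.15 ± 1.15, adjusted p = 0.0124). In both genes the positive library of litter 2 was the lowest of the 3 positive libraries by a wide margin, yet lay above every negative library. The adult-type gene Hbb-bs stood at 133, 139.9 and 329 against 20.6, 39.03 and 40.5 CPM (2.44 ± 0.55, adjusted p = 0.0245), a smaller ratio than that of the embryonic globins, which was not tested against them. Reads of near-identical globin copies such as Hba-a1 and Hba-a2, or Hbb-bs and Hbb-bt, may be shared in the deposited counts. Pf4, a platelet and fetal macrophage chemokine gene that stands in both lists, rose with a log2 fold change of 5.73 ± 0.36. Tfrc, the transferrin receptor used by all growing cells, was the 1 lower member at 55.6, 59.9 and 40.6 against 111, 95.97 and 58.1 CPM (-0.80 ± 0.12, adjusted p = 0.000132). The erythroid transcription factor gene Klf1 had too few counts to be tested. Without litter 3 the number of higher genes was 3 in place of 8. It was also 3 without either library of litter 1, and 4 without either of litter 2. The call of Hba-x held with each of these libraries left out, that of Hbb-y was lost without a library of litter 1 or 3 (adjusted p = 0.056 to 0.078), and that of Hbb-bs without any 1 of the 6 (adjusted p = 0.0785 to 0.119). Tfrc was not called without the pairing (adjusted p = 0.0725).

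**Figure D2:**
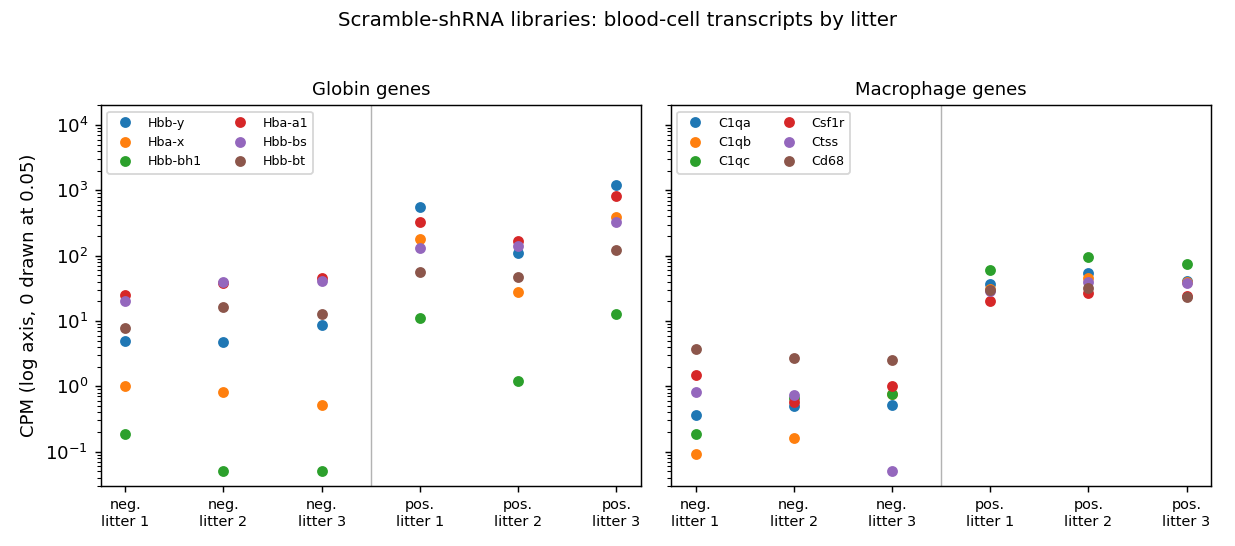
CPM on a log axis for 6 globin genes and 6 macrophage genes in each scramble-shRNA library, with 0 drawn at 0.05. Globin levels differ widely between litters within the positive fraction, from 111 to 1231 CPM for Hbb-y, whereas the macrophage genes keep similar levels in the 3 positive libraries, from 60.2 to 95.4 CPM for C1qc.

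Stromal genes made up the next group. Of the 16 cortical stroma genes 12 were higher and 0 lower, beside 11.5% and 9.49% of all genes. Their median log2 fold change was 0.74. Foxd1, the transcription factor that marks cortical stromal progenitors, stood at 358, 369 and 243 CPM in the positive and 145, 114 and 96.4 CPM in the negative libraries (1.40 ± 0.12, adjusted p = 4.08e-07). Every positive library was above every negative library. Ptn, a secreted growth factor of the stroma, stood at 511, 495 and 441 against 197, 177 and 181 CPM (1.33 ± 0.11), and Clca3a1 at 21.4, 15.5 and 15.1 against 1.88, 1.44 and 3.599 CPM (3.11 ± 0.26). Meis1, a homeobox gene expressed throughout the stroma, changed less, at 268, 275 and 217 against 168, 145 and 153 CPM (0.66 ± 0.10, adjusted p = 0.000131). The list sum was 4274, 4287 and 3769 CPM against 2956, 2551 and 2421 CPM.

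The genes of the medullary and ureteric stroma were divided. Of 17 tested, 8 were higher and 3 lower, beside 11.5% and 9.49% of all genes, with a median of 0.29. The number higher was 5 without either library of litter 2. Igf1, a growth factor gene of stroma and of macrophages, changed most, at 45.3, 68.3 and 87.2 against 5.68, 5.01 and 7.71 CPM (3.38 ± 0.18). Macrophage genes moved with it, and their part was not tested. Tbx18, which marks the mesenchyme around the ureter, stood at 27.9, 25.5 and 29.2 against 11.1, 10.4 and 13.4 CPM (1.22 ± 0.17), and Prrx1, a mesenchymal homeobox gene, at 32.7, 31.1 and 33.6 against 12.5, 9.61 and 10.5 CPM (1.53 ± 0.18). Penk, an opioid precursor gene of the medullary stroma, stood at 270.2, 306 and 289 against 144, 122 and 162 CPM (0.98 ± 0.12). The lower members were Wnt4, Alx1 and Lef1. Alx1, a homeobox gene of the medullary stroma, stood at 29.8, 20.9 and 22.8 against 48.1, 43.1 and 48.3 CPM (-0.97 ± 0.12, adjusted p = 1.79e-05), so its direction was opposite to that of Foxd1. Lef1, a nuclear effector of WNT signalling, lost its call without the positive library of litter 1 (adjusted p = 0.055).

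Matrix genes rose with the stroma. Of the 24 interstitial fibroblast matrix genes 17 were higher and 1 lower, beside 11.5% and 9.49% of all genes. Their median was 0.61, and the number higher was 11 without either library of litter 2. The size of the change varied between genes. Of the small leucine-rich proteoglycans, which sit on collagen fibrils, 8 of 9 tested genes were higher, with a median of 2.49. That list was added after the values had been seen, and it shares Dcn and Lum with the matrix list. Dcn, which encodes decorin, stood at 249.8, 244 and 319.6 CPM against 19.3, 18.2 and 26.99 CPM (3.63 ± 0.11, adjusted p = 6.78e-13), a mean ratio of 12.6-fold. Lumican (Lum) stood at 54.1, 68.9 and 75.8 against 3.57, 4.03 and 4.88 CPM (3.96 ± 0.18) and osteoglycin (Ogn) at 37.8, 45.2 and 40.6 against 1.92, 1.23 and 2.06 CPM (4.60 ± 0.20). The list sum was 599.8, 617 and 678 CPM against 105, 91.4 and 127 CPM, with no overlap.

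By contrast, the main fibrillar collagen gene Col1a1 stood at 2309, 2746 and 2316 against 1535, 1339 and 1272 CPM (0.78 ± 0.13, adjusted p = 0.000294). Col3a1 changed by 0.44 ± 0.12, and its call was lost without either library of litter 2 or of litter 3 (adjusted p = 0.0668 to 0.215). The elastic fibre gene Eln stood at 98.7, 106 and 91.6 against 35.6, 24.7 and 23.1 CPM (1.79 ± 0.12) and Postn, a matricellular protein gene of fibroblasts, at 163, 205 and 189 against 43.5, 45.1 and 52.2 CPM (1.94 ± 0.12). Vcan, which encodes the large proteoglycan versican, was the 1 lower member at 226, 257 and 233 against 413, 378 and 326 CPM (-0.69 ± 0.11, adjusted p = 0.00024), and 2 genes were lower without either library of litter 2.

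Contractile genes were higher as well. Of 20 smooth muscle and pericyte genes 12 were higher and 2 lower, beside 11.5% and 9.49% of all genes. Their median was 0.76. The number higher was 8 without either library of litter 2. Acta2, the smooth muscle actin, stood at 533, 344 and 349.8 CPM against 73.7, 67.4 and 111 CPM (2.25 ± 0.37, adjusted p = 0.00492). Myl9, a regulatory myosin light chain, stood at 98.7, 69.6 and 92.6 against 19.4, 16.1 and 28.8 CPM (2.03 ± 0.16) and the smooth muscle myosin heavy chain gene Myh11 at 16.3, 9.94 and 23.1 against 1.74, 1.89 and 3.86 CPM (2.70 ± 0.35). In each of the 3 genes the fractions did not overlap. Tagln, a smooth muscle actin-binding protein gene, rose by 2.16 ± 0.52, but its call was lost without any 1 of the libraries of litters 1 and 2 (adjusted p = 0.147 to 0.161). The intermediate filament gene Des and the integrin gene Itga8, which is also expressed in nephron progenitors, were the lower members, at -0.46 and -0.63. The call of Des was lost without any 1 library of litters 1 and 2 (adjusted p = 0.0544 to 0.115).

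Among 11 tested renin and mesangial genes 6 were higher and 3 lower, beside 11.5% and 9.49% of all genes. Their median was 0.57. The lower members included Itga8 (-0.63), which is also in the smooth muscle list. The number higher was 4 without either library of litter 1 or of litter 3, and 5 without either of litter 2. The number lower was 2 without any 1 library of litters 1 and 2. Ren1, which encodes renin, stood at 4.97, 3.81 and 3.17 against 1.01, 1.48 and 0.257 CPM (1.90 ± 0.39, adjusted p = 0.00203). Akr1b7, a reductase gene that marks renin cells, stood at 9.41, 8.59 and 6.34 against 1.67, 1.07 and 1.03 CPM (2.68 ± 0.32), and the angiotensin receptor gene Agtr1a at 9.23, 8.75 and 7.29 against 2.93, 3.12 and 3.34 CPM (1.44 ± 0.28). Counts of Ren1 are low, but its positive libraries all lay above its negative ones.

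The genes that the series targets with its other vectors were measured here without a knockdown. Mylk (ENSMUSG00000022836), which encodes myosin light chain kinase, stood at 211, 181 and 198 CPM in the positive and 73.7, 57.8 and 75.8 CPM in the negative libraries. It was 2.85-fold higher by mean level (1.47 ± 0.12, adjusted p = 2.52e-07), so its baseline differed between the fractions with the smooth muscle list to which it belongs. Rock1 (ENSMUSG00000024290) stood at 78.9, 76.5 and 101 against 106, 81.6 and 89.97 CPM (-0.18 ± 0.10, adjusted p = 0.251) and Rock2 (ENSMUSG00000020580) at 64.97, 67.5 and 81.9 against 88.1, 68.8 and 71.5 CPM (-0.15 ± 0.12, adjusted p = 0.397). For both kinases the fractions overlapped, and the 95% intervals of the log2 fold change were -0.39 to 0.04 for Rock1 and -0.40 to 0.09 for Rock2.

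Nephron progenitor genes were lower in the positive fraction. Of 20 tested, 14 were lower and 0 higher, with a median of -0.67, beside 9.49% of all genes called lower. Six2, the transcription factor that keeps progenitors from differentiating, stood at 225, 206 and 192 CPM in the positive and 395, 381 and 243 CPM in the negative libraries (-0.74 ± 0.14, adjusted p = 0.00128). Eya1, its partner in the progenitors, stood at 60.7, 59.2 and 65.3 against 116, 128 and 87.1 CPM (-0.89 ± 0.12), and Wt1 at 91.5, 84.2 and 107 against 174, 158 and 171 CPM (-0.89 ± 0.09). Cited1, a marker of the least differentiated progenitors, stood at 115, 96.2 and 114 against 154, 169.8 and 119.5 CPM, with no overlap, but did not pass the test (-0.50 ± 0.21, adjusted p = 0.113). Gdnf, the growth factor that progenitors and stroma supply to the ureteric bud, stood at 107, 118 and 89.1 against 96.5, 95.97 and 71.98 CPM and did not pass either (0.20 ± 0.10, adjusted p = 0.169). Six2 was thus 1.64-fold lower by mean level and still present in the positive fraction. Without either library of litter 2 the number of lower genes was 7, and without the pairing it was 9.

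Early nephron genes, switched on as progenitors become epithelium, were lower by a larger margin. All 21 were tested, 16 were lower and 2 higher, beside 9.49% and 11.5% of all genes, and the median was -1.25. Wnt4, the signal that starts the transition, stood at 125, 90.3 and 103 CPM against 369, 351 and 278 CPM (-1.71 ± 0.12, adjusted p = 2.78e-08). Lhx1, a transcription factor of the renal vesicle, stood at 8.17, 6.02 and 5.07 against 43.3, 47.7 and 12.9 CPM (-2.54 ± 0.45, adjusted p = 0.00432). Pax8 stood at 17.04, 14.9 and 14.6 against 67.6, 73.8 and 26.2 CPM (-1.93 ± 0.29), and the NOTCH ligand gene Dll1 at 4.44, 7.73 and 6.03 against 28.4, 35.9 and 10.03 CPM (-2.16 ± 0.26). For Lhx1, Pax8 and Dll1 the negative library of litter 3 was far below those of litters 1 and 2, although above every positive library. The median paired difference of the list was -1.21, -1.45 and -0.53 in litters 1, 2 and 3 on the log2 scale. The 2 higher genes were Dkk1, a secreted WNT antagonist, at 41.01, 37.7 and 34.9 against 27.5, 20.1 and 14.9 CPM (0.81 ± 0.17) and Mecom, a zinc finger factor also expressed in endothelium, at 67.9, 80.7 and 50.7 against 43.4, 34.6 and 26.5 CPM (0.89 ± 0.12). The number lower was 8 without either library of litter 2, and Lhx1 and Fgf8 were then not called (adjusted p = 0.0689 to 0.0721 and adjusted p = 0.0645 to 0.0652).

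Genes of epithelial junctions followed the same direction. Of 24 tested, 19 were lower and 0 higher, beside 9.49% and 11.5% of all genes, and the median was -1.35. Cdh1, which encodes E-cadherin, stood at 7.63, 6.22 and 4.12 against 19.97, 20.2 and 9.25 CPM (-1.53 ± 0.23, adjusted p = 0.000135). Epcam, a cell-surface marker of epithelia, stood at 20.6, 17.3 and 18.4 against 49.01, 54.1 and 24.2 CPM (-1.26 ± 0.22), and the tight junction gene Cldn7 at 9.41, 6.38 and 8.24 against 25.01, 26.2 and 12.6 CPM (-1.55 ± 0.23). The fractions did not overlap in these 3 genes. Without the positive library of litter 2 the count was 9, and without the negative one 8.

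Ureteric bud genes were lower in many cases. In the tip list 8 of 13 tested genes were lower and 2 higher (median -0.65), beside 9.49% and 11.5% of all genes. In the trunk and collecting duct list 7 of 15 were lower and 0 higher (median -0.61). Wnt11, the signal made by bud tips, stood at 15.4, 12.5 and 12.7 against 23.5, 26.2 and 24.2 CPM (-0.91 ± 0.13, adjusted p = 8.23e-05). Ret, the receptor through which tips sense GDNF, stood at 1.598, 1.596 and 0.951 against 3.57, 4.19 and 2.83 CPM (-1.36 ± 0.32), and its call was lost without either library of litter 2 (adjusted p = 0.0851 to 0.0866). Emx2, a homeobox gene of the ureteric epithelium, stood at 5.15, 3.81 and 5.07 against 25.5, 21.4 and 6.68 CPM (-2.11 ± 0.30), with the negative library of litter 3 close to the positive libraries. The higher tip genes were Adamts18 (1.19 ± 0.27), a secreted protease, and Cpxm1 (0.54 ± 0.11), a carboxypeptidase-like protein. Adamts18 was not called without either library of litter 2 (adjusted p = 0.103 to 0.104). Without those libraries the counts of lower genes were 3 for the tip and 2 for the trunk, and without those of litter 1 the trunk count was 4.

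**Figure D3:**
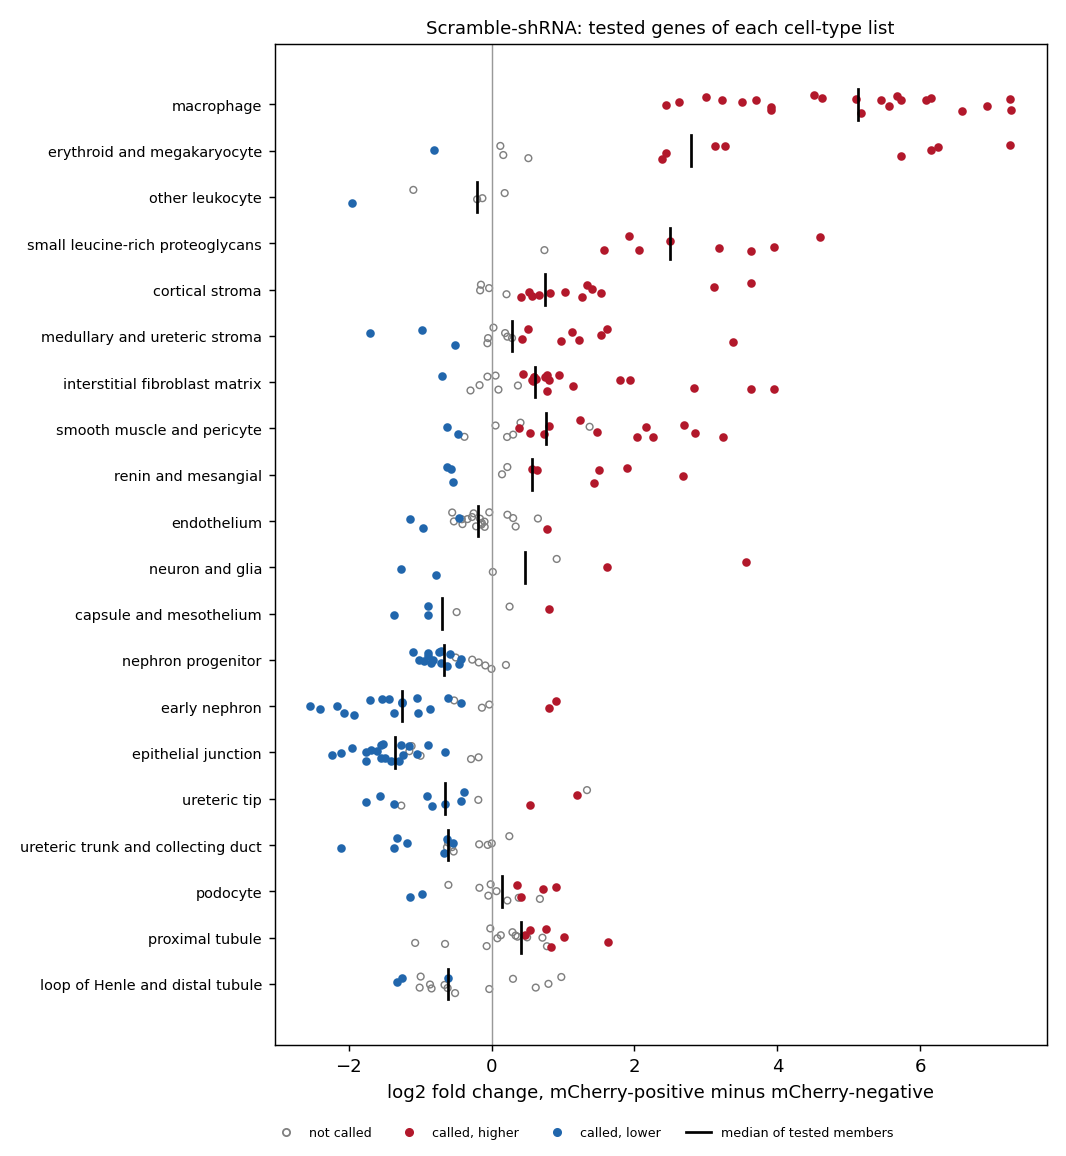
Each point is 1 tested gene of a cell-type list, placed by its log2 fold change between the positive and negative scramble-shRNA fractions, and the bar is the median of the list. Macrophage genes lie between 2.45 and 7.27, stromal and smooth muscle lists lie mostly above 0, and nephron progenitor, early nephron and epithelial junction lists lie mostly below 0.

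Genes of differentiated nephron segments did not move as a block. Of 18 proximal tubule genes 6 were higher and 0 lower (median 0.41), beside 11.5% and 9.49% of all genes. The number higher was 3 without either library of litter 1 or of litter 3 and 1 without either of litter 2. Slc7a7, an amino acid exchanger also expressed by macrophages, led them at 26.8, 29.2 and 21.6 against 10.9, 6.41 and 8.23 CPM (1.62 ± 0.16, adjusted p = 2.35e-06). Slc34a1, the phosphate transporter of the proximal tubule, stood at 28.9, 23.9 and 52.01 against 21.9, 16.7 and 28.3 CPM (0.54 ± 0.18, adjusted p = 0.0464), its fractions overlapped, and its call was lost without any 1 of the 6 libraries (adjusted p = 0.0892 to 0.203). The endocytic receptor gene Lrp2 did not pass, at 10.3, 10.8 and 21.9 against 10.8, 9.04 and 9.77 CPM. In the podocyte list 4 of 14 tested genes were higher and 2 lower, few called genes to set against those shares. The number lower was 1 without any 1 library of litters 1 and 2. Synpo, an actin-associated podocyte protein gene that smooth muscle also uses, stood at 15.4, 14.7 and 10.8 against 8.52, 6.49 and 7.198 CPM (0.90 ± 0.20) and lost its call without either library of litter 2 (adjusted p = 0.0871 to 0.0881), when 1 gene of the list was higher. The slit diaphragm gene Nphs1 had too few counts to be tested. In the loop of Henle and distal tubule list 3 of 15 were lower and 0 higher, again few called genes. The number lower was 0 without either library of litter 2.

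Of 22 endothelial genes tested, 1 was higher and 3 were lower, with a median of -0.19, beside 11.5% and 9.49% of all genes. Flt1, a VEGF receptor gene, stood at 16.7, 18.8 and 20.3 against 31.5, 31.6 and 45.2 CPM (-0.96 ± 0.22, adjusted p = 0.00637), and Cldn5, a tight junction gene of endothelium and podocytes, at 8.52, 11.05 and 13.6 against 20.6, 26.3 and 20.8 CPM (-1.14 ± 0.22). Eng, a TGF-beta co-receptor gene also made by macrophages, was the 1 higher member at 24.1, 28.2 and 24.7 against 12.6, 13.7 and 19.8 CPM (0.78 ± 0.17), but not without either library of litter 2 (adjusted p = 0.0733 to 0.074). The junctional cadherin gene Cdh5 stood at 45.8, 59.8 and 45.03 against 52.7, 67.9 and 56.3 CPM and did not pass, with a 95% interval of -0.68 to 0.13. Of 16 neural genes 6 were tested, of which 2 were higher and 2 lower, too few to set against the shares of all genes. Stmn2, a neuronal microtubule regulator, was higher at 7.99, 6.75 and 3.17 against 0.550, 0.329 and 1.03 CPM (3.57 ± 0.41) and the radial glia gene Fabp7 at 6.21, 13.1 and 12.4 against 3.21, 3.62 and 2.31 CPM (1.62 ± 0.24). The lower genes were Erbb3, a neuregulin receptor gene of glia and epithelia, at 3.195, 2.58 and 1.27 against 6.78, 6.49 and 3.34 CPM (-1.27 ± 0.26), and Elavl4, a neuronal RNA-binding protein gene, at 13.3, 17.7 and 14.6 against 26.7, 29.8 and 17.99 CPM (-0.78 ± 0.14). Erbb3 was not called without either library of litter 2 (adjusted p = 0.0559 to 0.0566). The neural crest regulators Sox10 and Foxd3 had no count in any scramble-shRNA library.

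Hypoxia and glycolysis genes were lower in the positive fraction without exception. Cells short of oxygen stabilise HIF transcription factors, which switch on glucose uptake, glycolysis and growth of vessels. All 25 genes were tested and all 25 were lower in the positive fraction, beside 9.49% of all genes called lower. The median was -0.95 and the range -2.01 to -0.32. The list sum was 8271, 7755 and 6878 CPM in the positive and 13865, 11919.7 and 10613 CPM in the negative libraries. P4ha2, a collagen prolyl hydroxylase and HIF target, stood at 103, 94.5 and 68.5 against 343, 288 and 237 CPM (-1.75 ± 0.11, adjusted p = 7.3e-09). Car9, a carbonic anhydrase and a standard marker of hypoxic cells, stood at 3.55, 3.56 and 0.951 against 12.3, 11.9 and 11.1 CPM (-2.01 ± 0.25). The glucose transporter gene Slc2a1 stood at 141, 135 and 81.8 against 354, 254 and 177 CPM (-1.17 ± 0.10) and the glycolytic gene Pgk1 at 329, 337 and 283 against 756, 698 and 559.8 CPM (-1.13 ± 0.10). Vegfa, the vessel growth factor, stood at 239, 167 and 141 against 453, 323 and 303 CPM (-1.04 ± 0.10). In all 5 genes each positive library lay below each negative library. The median paired difference was -0.93, -0.83 and -0.95 in the 3 litters, so the list differed from the early nephron list in that litter 3 matched the others. Leaving out any 1 scramble-shRNA library kept 23 or 24 calls, and without the pairing 19 were called. The nephron and epithelial lists were lower in the same libraries, and their part in this result was not tested.

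HIF factors bind a core of ACGTG, and the promoters of P4ha2, Slc2a1 and Pgk1 are shown with that core, or its complement CACGT, in capitals. The run CACGTG would hold both. The windows and build are as for the macrophage promoters. P4ha2 lies at chr11:54100674-54100973 on the plus strand, Slc2a1 at chr4:119108495-119108794 on the plus strand and Pgk1 at chrX:106186850-106187149 on the plus strand.
P4ha2: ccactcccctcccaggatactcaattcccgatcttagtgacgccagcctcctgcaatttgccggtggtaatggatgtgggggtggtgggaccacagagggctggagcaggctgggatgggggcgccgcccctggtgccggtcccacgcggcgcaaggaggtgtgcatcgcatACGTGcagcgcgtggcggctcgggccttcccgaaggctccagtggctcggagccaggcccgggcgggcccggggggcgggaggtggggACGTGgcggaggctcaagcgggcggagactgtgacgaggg
Slc2a1: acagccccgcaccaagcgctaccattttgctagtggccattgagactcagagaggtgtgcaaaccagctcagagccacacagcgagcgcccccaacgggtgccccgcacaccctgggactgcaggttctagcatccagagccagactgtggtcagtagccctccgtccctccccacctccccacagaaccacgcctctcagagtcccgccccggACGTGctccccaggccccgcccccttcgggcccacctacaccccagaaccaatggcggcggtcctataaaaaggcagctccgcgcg
Pgk1: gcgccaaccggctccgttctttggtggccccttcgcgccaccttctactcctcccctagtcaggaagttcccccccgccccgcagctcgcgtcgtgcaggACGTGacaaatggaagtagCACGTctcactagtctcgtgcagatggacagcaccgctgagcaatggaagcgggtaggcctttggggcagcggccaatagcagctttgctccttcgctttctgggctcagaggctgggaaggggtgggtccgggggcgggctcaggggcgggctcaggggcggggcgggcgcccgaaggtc
The core was found in 14 of 24 promoters of the hypoxia list (58.3%) and in 19.7% of all promoters of the table. This share is a property of a list chosen for its pathway and is not a result of these libraries. The promoters of the list also had a higher GC content, with a median of 64.8% against 52.7%, and the part of GC content in the share was not tested.

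The integrated stress and unfolded protein response was lower too, with a median of -0.37. In that list 14 of 23 genes were lower and 0 higher, beside 9.49% and 11.5% of all genes. Trib3, a pseudokinase induced by amino acid shortage, stood at 4.08, 10.1 and 6.98 against 23.7, 22.02 and 17.2 CPM (-1.63 ± 0.21, adjusted p = 2.96e-05), and the asparagine synthetase gene Asns at 32.7, 44.1 and 49.3 against 59.5, 69.8 and 66.8 CPM (-0.71 ± 0.11). The number lower in the list was 7 without the pairing and 9 without either library of litter 2. Derl3, a gene of endoplasmic reticulum degradation outside that list, was among the 15 genes with the largest decrease. It stood at 1.24, 2.95 and 0.951 against 7.42, 9.53 and 12.6 CPM (-2.31 ± 0.35). The largest decrease among called genes of at least 5 CPM was that of Gpr15lg, a secreted ligand of the receptor GPR15, at 2.13, 1.72 and 0.951 against 20.2, 22.6 and 26.5 CPM (-3.75 ± 0.22, adjusted p = 4.05e-09). A2m, the protease inhibitor alpha-2-macroglobulin, stood at 25.03, 27.7 and 25.4 against 142, 112 and 185 CPM (-2.47 ± 0.14), and Sema3e, a repellent guidance cue of vessels, at 4.97, 4.05 and 3.81 against 19.7, 15.5 and 23.9 CPM (-2.15 ± 0.18).

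WNT pathway genes were more often lower than higher, 12 against 3 of 26 tested (median -0.52), beside 9.49% and 11.5% of all genes. The number lower was 7 without either library of litter 2. That list includes Wnt4, which is also in the early nephron and the medullary and ureteric stroma lists. The nephron lists were lower in the same libraries, and their part was not tested. Axin2, a direct target of beta-catenin, stood at 31.4, 38.2 and 34.2 against 57.99, 61.95 and 51.7 CPM (-0.78 ± 0.10, adjusted p = 2.43e-05), and Tcf7, a nuclear effector, at 18.5, 19.5 and 16.5 against 35.3, 37.2 and 32.9 CPM (-0.99 ± 0.12). The secreted antagonist gene Dkk2 moved the other way, at 58.5, 68.9 and 55.2 against 17.04, 13.2 and 10.9 CPM (2.10 ± 0.14, adjusted p = 2.29e-08). In the NOTCH list of 17 genes, 5 were lower and 3 higher, few called genes to set against those shares. The number lower was 2 without any 1 library of litters 1 and 2. The ligand gene Dll1 is described above. Hey1, a NOTCH target of nephron precursors, was lower at -1.06, whereas Heyl and Hey2, targets that vascular smooth muscle also expresses, were higher at 0.80 and 0.98. In the retinoic acid list of 15 genes, 5 were higher and 3 lower, again few called genes. Crabp1, a retinoic acid binding protein, stood at 41.4, 28.9 and 20.3 against 6.596, 4.11 and 3.86 CPM (2.63 ± 0.20). Rbp4, the retinol carrier, stood at 7.46, 7.24 and 5.39 against 12.4, 17.5 and 11.1 CPM (-1.07 ± 0.19).

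Interferon response genes were higher, with a median of 0.65. Among 22 tested genes 14 were higher and 0 lower, beside 11.5% and 9.49% of all genes. Ifit3, an antiviral protein gene, stood at 6.302, 5.52 and 2.38 against 1.79, 0.945 and 0.514 CPM (2.09 ± 0.28, adjusted p = 4.15e-05), and Gbp2, a guanylate-binding protein gene, at 8.34, 11.05 and 9.67 against 3.298, 2.63 and 1.54 CPM (1.82 ± 0.24). Isg15, a ubiquitin-like modifier, stood at 6.83, 5.89 and 7.93 against 2.13, 2.18 and 3.08 CPM (1.47 ± 0.24). The list sum was 253, 255 and 262 CPM against 163, 147 and 187 CPM. The count was 6 without the pairing, 7 without either library of litter 1 and 4 without either library of litter 2. The macrophage list, summed at 431 to 652 CPM in the positive and 16.7 to 26.1 CPM in the negative libraries, moved with these genes, and its part in the result was not tested.

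Lysosomal genes were higher in 25 of 37 cases and lower in 0 (median 0.57), beside 11.5% and 9.49% of all genes. That list was also added after the values had been seen, and it includes Ctss. Ctsd, an aspartic protease gene, stood at 413, 449.8 and 380.1 against 188, 172 and 161 CPM (1.21 ± 0.11, adjusted p = 4.41e-07), Ctsb, a cysteine protease gene, at 479, 583 and 385 against 214, 198 and 166 CPM (1.26 ± 0.11), and the lysosomal membrane gene Lamp1 at 299.8, 327 and 250.04 against 195, 187 and 178 CPM (0.59 ± 0.09). The fractions did not overlap in these 3 genes. Macrophage genes moved with this list as well, and their part was not tested.

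Some cell-cycle genes were higher. Of 38 genes of DNA replication and mitosis 12 were higher and 0 lower, beside 11.5% and 9.49% of all genes. Their median was 0.23. Plk1, a mitotic kinase, stood at 53.97, 41.5 and 43.1 against 30.96, 25.1 and 23.1 CPM (0.75 ± 0.12, adjusted p = 0.000267), and Ccne1, cyclin E, at 51.5, 47.5 and 47.6 against 33.4, 31.6 and 29.6 CPM (0.58 ± 0.11). The proliferation marker Mki67 stood at 114, 87.5 and 76.2 against 86.5, 63.5 and 49.7 CPM and did not pass (0.44 ± 0.16, adjusted p = 0.0662). Without the pairing the count was 3, and leaving out any 1 scramble-shRNA library left 7 or 8. Targets of the actin-regulated factors MRTF and SRF were higher in 14 of 27 cases and lower in 0, beside 11.5% and 9.49% of all genes. Their median was 0.43, and 7 were higher without either library of litter 2. That list includes smooth muscle genes, and the smooth muscle list moved with it. Of 22 YAP and TEAD targets 8 were higher and 2 lower, with a median of 0.06, beside the same shares. The number higher was 5 without either library of litter 1 and 1 without either of litter 2. The number lower was 0 without either library of litter 1. Actomyosin regulators were higher in 5 and lower in 1 of 24 cases, few called genes to set against those shares. The number lower was 0 without any 1 of the 6 libraries. Immediate early and dissociation stress genes were higher in 6 and lower in 2 of 26, again few called genes. These counts were 0 higher and 1 lower without either library of litter 1, and 3 higher and 1 lower without either of litter 2.

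Genes of AAV entry were nearly balanced. Of 26 tested genes of receptors and trafficking 5 were higher and 3 lower, with a median of 0.07, against 11.5% and 9.49% of all genes. AU040320, the mouse gene of the AAV receptor AAVR, stood at 18.8, 14.4 and 13.3 against 20.5, 16.7 and 13.6 CPM, and its fractions overlapped (-0.18 ± 0.13, adjusted p = 0.346, 95% interval -0.45 to 0.09). Fgfr1, a proposed AAV2 co-receptor, stood at 374, 427 and 392 against 484, 501 and 392 CPM and did not pass (-0.25 ± 0.11, adjusted p = 0.114). Met, another proposed co-receptor, was lower at 7.101, 10.3 and 11.4 against 18.05, 17.5 and 12.3 CPM (-0.85 ± 0.20, adjusted p = 0.00496) but not without either library of litter 1 (adjusted p = 0.102 to 0.104). Egfr, a receptor kinase linked to AAV2 transduction, was higher at 36.4, 49.1 and 40.3 against 28.7, 19.5 and 23.7 CPM (0.79 ± 0.17), though not without either library of litter 2 (adjusted p = 0.111 to 0.113). Leaving out the libraries of litter 2 left 0 higher and 1 lower gene of the list, and those of litter 1 left 2 and 0.

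Of 31 heparan sulfate genes 3 were higher and 6 lower, beside 11.5% and 9.49% of all genes. Without either library of litter 1 these counts were 3 and 2, and without either of litter 2 they were 1 and 3. Hs3st3b1, which adds a rare sulfate to the chains, stood at 8.61, 14.9 and 8.56 against 42.8, 38.9 and 21.2 CPM (-1.73 ± 0.18, adjusted p = 3.73e-06). Sulf1, an enzyme that removes sulfates from the chains outside the cell, stood at 26.98, 31.1 and 31.7 against 11.6, 10.7 and 4.88 CPM (1.58 ± 0.19, adjusted p = 1.21e-05). Both differences held in each litter with no overlap of the fractions. The p53 list of 23 genes held 2 higher and 5 lower, and the list of 21 DNA repair genes linked to AAV genomes 1 of each. The called genes were few, and these lists were not tested against those shares. In the p53 list 1 gene was higher without either library of litter 1 and 0 without either of litter 2. In the DNA repair list the counts of higher and lower genes were 0 and 0 without either library of litter 1, 1 and 0 without either of litter 2, and 0 and 2 without either of litter 3. None of the 14 genes of small RNA processing, which shRNA cassettes rely on, passed, with log2 fold changes of -0.39 to 0.24. None of the 13 genes of the mitochondrial genome passed either, but 6 were higher without litter 3, whose negative library held the 7.62% of mitochondrial counts, and 4 without 1 library of it.

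**Figure D4:**
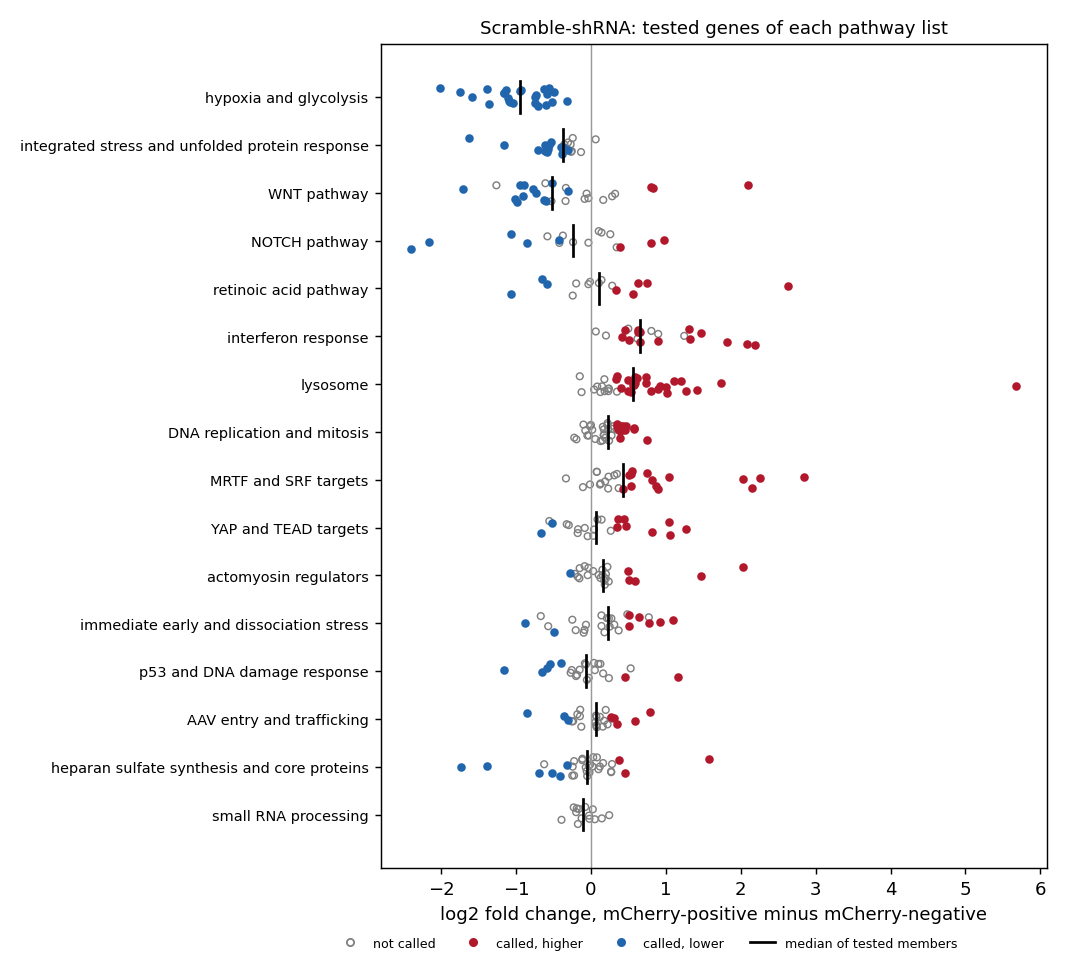
Each point is 1 tested gene of a pathway list, placed by its log2 fold change between the positive and negative scramble-shRNA fractions, and the bar is the median of the list. All 25 hypoxia and glycolysis genes lie below 0, interferon and lysosome genes lie mostly above 0, and genes of AAV entry, heparan sulfate and small RNA processing scatter around 0.

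The same sort was made with the other 2 vectors, whose libraries share litters but no library with the scramble-shRNA comparison. In Mylk-shRNA cultures 1970 genes (11.9%) were higher and 1704 (10.3%) lower in the positive fraction, and in Rock1/2-shRNA cultures 1683 (10.2%) were higher and 1343 (8.12%) lower. Of the 3466 scramble-shRNA calls, 2396 were also called with Mylk-shRNA (69.1% of the scramble-shRNA and 65.2% of the Mylk-shRNA calls) and 2317 with Rock1/2-shRNA (66.8% and 76.6%). All had the same direction, and 2011 (58.0% of the scramble-shRNA calls) were called with all 3 vectors.

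Of the macrophage list all 22 genes were higher with each vector, and of the hypoxia list all 25 were lower with each. C1qc changed by 7.25 ± 0.22 with scramble-shRNA, 6.46 ± 0.20 with Mylk-shRNA and 5.81 ± 0.19 with Rock1/2-shRNA. Dcn changed by 3.63 ± 0.11, 3.51 ± 0.11 and 3.31 ± 0.11, Wnt4 by -1.71 ± 0.12, -1.71 ± 0.12 and -1.71 ± 0.12, and P4ha2 by -1.75 ± 0.11, -1.82 ± 0.11 and -1.82 ± 0.11. Some lists had other counts with the other vectors. Endothelial genes were lower in 3 of 22 cases with scramble-shRNA and in 11 with each of Mylk-shRNA and Rock1/2-shRNA, with medians of -0.19, -0.63 and -0.69. Proximal tubule genes were higher in 6, 2 and 2 of 18 cases, with medians of 0.41, 0.01 and 0.08. Erythroid genes were higher in 8, 7 and 4 of 12 cases, with medians of 2.78, 2.27 and 1.04.

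The difference between the fractions was itself compared between vectors for every gene. edgeR called 0 genes between Mylk-shRNA and scramble-shRNA, with 709 (4.29% of the genes tested) at an unadjusted p under 0.05. It also called 0 between Rock1/2-shRNA and scramble-shRNA, with 407 (2.46%). Both shares are below 5%. DESeq2 also called 0 in both, with 242 and 100. Without the filter on low counts edgeR called 5 and 2 genes, all of which the main fit had also tested. Among genes of at least 5 CPM that are not predicted genes, the 3 smallest p-values belonged, for Mylk-shRNA, to Zfp57, an imprinting factor whose log2 fold change was 0.78 with scramble-shRNA and -0.45 with Mylk-shRNA, to Ttc14, at 0.04 and -0.65, and to Tmem150a, at 1.19 and 0.55 (adjusted p = 0.964 each). For Rock1/2-shRNA they belonged to the potassium channel subunit gene Kcne3, at -1.11 and -2.34, Rbp4, at -1.07 and -2.10, and Nudt14, at 0.42 and -0.54 (adjusted p = 0.99989 each). The median half-width of the 95% interval of a difference was 0.45 for Mylk-shRNA and 0.46 for Rock1/2-shRNA. For 72.9% of the scramble-shRNA calls the whole interval lay within 1 log2 unit of 0 in each of the 2 comparisons, and for the others it reached beyond 1.

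**Figure D5:**
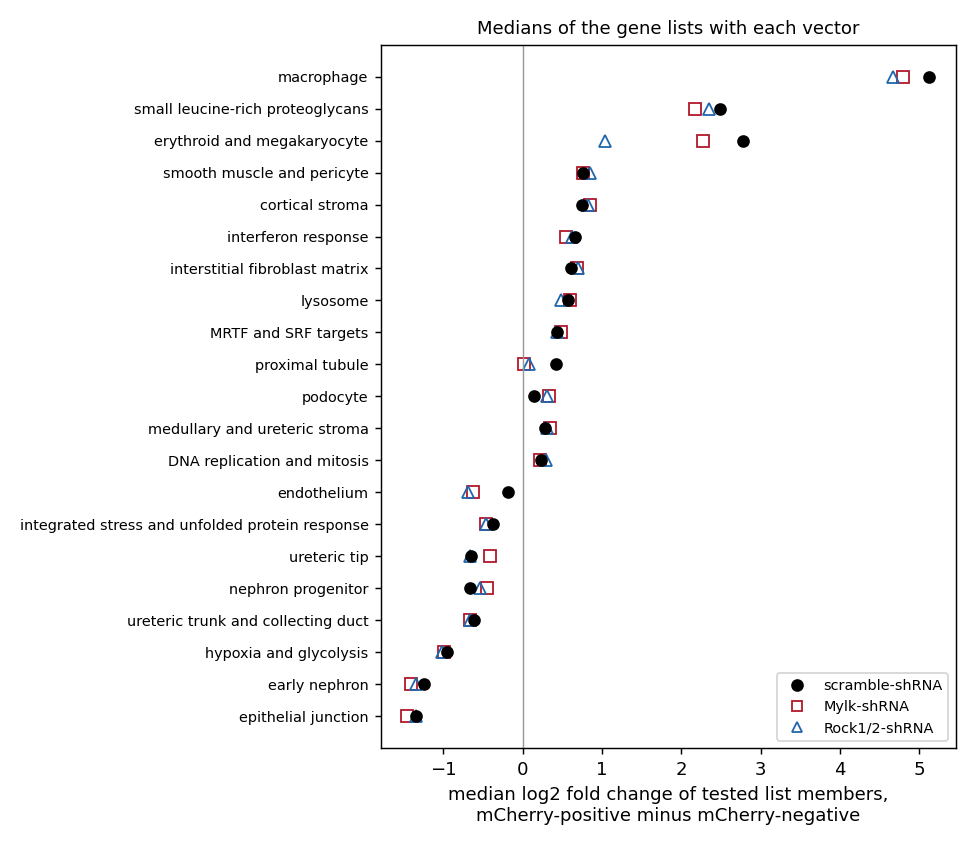
Median log2 fold change between the positive and negative fractions over the tested genes of 21 lists, for scramble-shRNA, Mylk-shRNA and Rock1/2-shRNA. The 3 medians run from 4.67 to 5.13 for the macrophage list, -1.02 to -0.95 for the hypoxia list, 1.04 to 2.78 for the erythroid list and -0.69 to -0.19 for the endothelial list.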

How the data were processed

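Poly(A) RNA was captured, reverse transcribed and tagmented, per the labels' protocols. The submitters' processing notes name fastp 0.24.0, STAR 2.7.11, SAMtools 1.22.1, featureCounts from Subread 2.1.1 and the build GRCm39. No source used here gives the other settings. The authors deposited estimated counts per gene, of which 23.0 to 27.4% of the values above 0 in the scramble-shRNA libraries were fractional, and CPM, each the deposited count scaled to a library total of 1000000. Counts were rounded to whole numbers, and 92 spike-in transcripts were left out of 78409 entries. The filterByExpr function of edgeR, with a minimum count of 10 and a minimum total of 15, kept 16544 genes for testing.

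edgeR 4.0.16 in R 4.3.3 (TMM scaling, robust quasi-likelihood test, Benjamini-Hochberg adjustment) was fitted to all 18 libraries. The fit had a term for each of the 9 cultures, that is each vector in each litter, and 1 positive-minus-negative coefficient per vector, with 6 residual degrees of freedom. The pairing comes from the labels, which give a litter for each library. Deviations of the 2 fractions of a culture correlated in all 9 pairs (r = 0.268 to 0.517, across genes). Each SE is the log2 fold change divided by the square root of F. With 3 libraries a group, an exact permutation test that ignores the pairing cannot go below p = 0.1. One that keeps the pairs has a higher floor, so tests rest on the fit across genes. No 2 libraries of a group agreed within sampling noise. The p-values measure the spread of the positive-minus-negative difference between litters, pooled over the 3 vectors. The same 3 litter numbers recur with each vector, so the 9 cultures are not 9 separate litters. The floor of 3 counts covers counting error only.

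Members, gene lists and tests were chosen with earlier results of these data known. Named genes were drawn from the 3 targeted genes and the 15 largest changes in each direction among called genes of at least 5 CPM. They were also drawn from the 4 smallest p-values of each of 38 lists and the 3 smallest of each difference test. The text gives a selection of these genes. Other list members, mostly standard markers and the exceptions within a list, were named after their values were seen. The shares of all genes are given beside list counts for scale, and no list was tested against them. Alternatives were another block or none, DESeq2 1.42.0 and its size factors, no filter, and leaving out each library or litter 3 of all vectors. The scripts were tested on simulated data.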

Additional observations from a re-analysis of the deposited data

Results flagged for a closer look

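Reads were assigned to spike-in transcripts, which lie outside the comparisons, in each of the 6 scramble-shRNA libraries. The lowest library held 8 such counts and the highest 22, above the 3 counts that a count of 0 allows. The labels used here describe no added spike-in, and the source of these counts was not tested.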

How the results depend on the processing

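Without the pairing by culture, the positive and negative fractions differed in 2032 genes with scramble-shRNA (1229 higher, 803 lower), 2186 with Mylk-shRNA and 1859 with Rock1/2-shRNA. DESeq2's test called 2160 (1236 higher, 924 lower), 2378 and 1958. The 6 Mylk-shRNA libraries alone, paired by litter, gave 2192 calls, and the 6 scramble-shRNA libraries alone without pairing gave 1698 (1063 higher, 635 lower). Leaving out 1 library at a time gave 1560 to 3978 calls with scramble-shRNA (886 to 2215 higher, 673 to 1881 lower), 1907 to 3968 with Mylk-shRNA and 1406 to 3462 with Rock1/2-shRNA. The causes were not tested. The differences between vectors stayed at 0 calls in these fits and reached 5 genes for Mylk-shRNA and 2 for Rock1/2-shRNA without the filter on low counts. All of these genes had passed the filter and were tested in the main fit. Among them were Malat1 for Mylk-shRNA (138240 counts over the 18 libraries) and Fabp4 for both vectors (20370 counts). Among named genes that did not pass, a sign change came without either scramble-shRNA library of litter 1 for Rock2 (-0.26 to 0.011 over all libraries left out) and for Ttc14 (-0.13 to 0.15). Of 113 named genes called, 9 lost the call without pairing, 2 with litter as the block, 1 with DESeq2's size factors, 3 with DESeq2's test, 5 without the filter, 8 without litter 3 and 21 when some library was left out. The median of all genes never moved by over 0.1. Litter 3 and its lower depth limit what can be seen for genes of a few CPM.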
